A study of Mus musculus with 1600 samples.

Results

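Genes for the proteins of the cytoplasmic ribosome were examined in single cells of embryonic mouse limbs. They were the gene symbols that begin with Rpl (large subunit) or Rps (small subunit), followed by a number and at most a short suffix. This pattern took 80 of the 22092 gene symbols in the table, 48 named Rpl and 32 named Rps. It leaves out 7 ribosomal proteins with other names (among them Rplp0, Rplp1, Rplp2 and Rpsa), which were added as an alternative. Of the 80 members, 77 had a count in at least 10 cells, 2 (Rpl3l and Rpl10l) had no count, and Rpl39l was counted in few cells.

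The cells were labelled as hind limb of SCX-GFP transgenic embryos on the C57BL/6 background, a line named for a fluorescent protein under control of the tendon gene scleraxis (Scx), and no sort for it is named. They were taken at the embryonic stages E10.5, E12.5 and E15.5, numbered by day of gestation, and all 3 stages share the strain and the transgene. Per the labels, limbs of siblings from a single litter were in general combined, digested with collagenase and trypsin, and captured cell by cell with the Fluidigm system. Each stage is therefore 1 sample, no test between stages was possible, and stage cannot be told apart from litter or library. By the index sequence given for each cell there were 12 library pools of 38 to 40 kept cells (3, 4 and 5 in stage order), which are a technical split and no biological replicates. Kept for the values below were 119, 158 and 200 cells with at least 1000 detected genes, with 33742559, 46009284 and 46035725 summed counts and a median of 272198, 250710 and 192228 counts per cell. The cells labelled E10.5 went against their hind limb label: Pitx1, a hind limb factor, had 0 counts there against 169 CPM (counts scaled to a common total) at E12.5, while Tbx5, a forelimb factor, was at 67.9 against 0.739 CPM. Every comparison with the cells labelled E10.5 below carries that difference.

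A ribosome joins a small subunit, which reads the messenger RNA, to a large subunit, which forms the peptide bond, and nearly every protein is present once in each ribosome. Their messenger RNAs are among the most abundant of growing cells. Many begin with a 5′ terminal oligopyrimidine tract, a C followed by further pyrimidines, through which the mTOR pathway controls their translation.

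The first bases of the transcripts of members described below show how such a start looks and which members lack it at the annotated start. Each line gives 8 bases before and 20 bases from the start annotated by RefSeq on GRCm38.p6, 5′ to 3′ on the strand of the gene. A C at the start and the pyrimidines that follow it are in capitals.
Rps27: ctttcgctCCTTTCCggcggtgacgacc (chr3:90213629-90213656, minus strand)
Rpl38: gcctcgttCTTTCCCCgttctcttcggt (chr11:114668572-114668599, plus strand)
Rpl28: tcgtgtctCTCTTTCCgtctccggccgc (chr7:4792957-4792984, plus strand)
Rpl35: gccctttcCTCTTTCTCTCgaaccaggc (chr2:39005112-39005139, minus strand)
Rps2: cgagatctCgcgcttcttggagcactat (chr17:24720055-24720082, plus strand)
Rpl5: tcgcttgcgtgctggtggtgctacatac (chr5:107900520-107900547, plus strand)
Rpl4: tcctgtgggagcagccgggtagagagga (chr9:64173379-64173406, plus strand)
Rpl37a: cgccggtctaaaaccgcgcatgcgcatt (chr1:72711252-72711279, plus strand)
Of the 60 members with an entry in the RefSeq promoter table, 12 (20%) opened with a C and at least 4 further pyrimidines, against 813 of 27025 genes with an entry (3.01%). Rps2, Rpl5, Rpl4 and Rpl37a had no such run at this position. A tract at another start of the same gene would not be seen in these windows. One that begins a few bases from the annotated start would not be counted.

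The family's share of all counts was lowest at E12.5. Summed over cells, the 80 members held 11.1% of counts in the cells labelled E10.5 (exact 95% Clopper-Pearson interval 11.1 to 11.1), 9.62% at E12.5 (9.62 to 9.63) and 12.0% at E15.5 (12.0 to 12.0). These intervals cover counting error only, and the spread between pools was wider. The 3 pools of E10.5 lay at 11.2%, 11.0% and 11.2%. Those of E12.5 lay at 9.92%, 9.71%, 9.28% and 9.52%, all below every other pool. The 5 pools of E15.5 lay at 12.8%, 12.2%, 11.0%, 12.4% and 11.5%, so that E15.5 and E10.5 overlapped through 1 E15.5 pool. The log2 ratio of the share was -0.21 for E12.5 against E10.5, 0.32 for E15.5 against E12.5 and 0.11 for E15.5 against E10.5, with a standard deviation between pools of 0.03, 0.07 and 0.06.

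**Figure D1:**
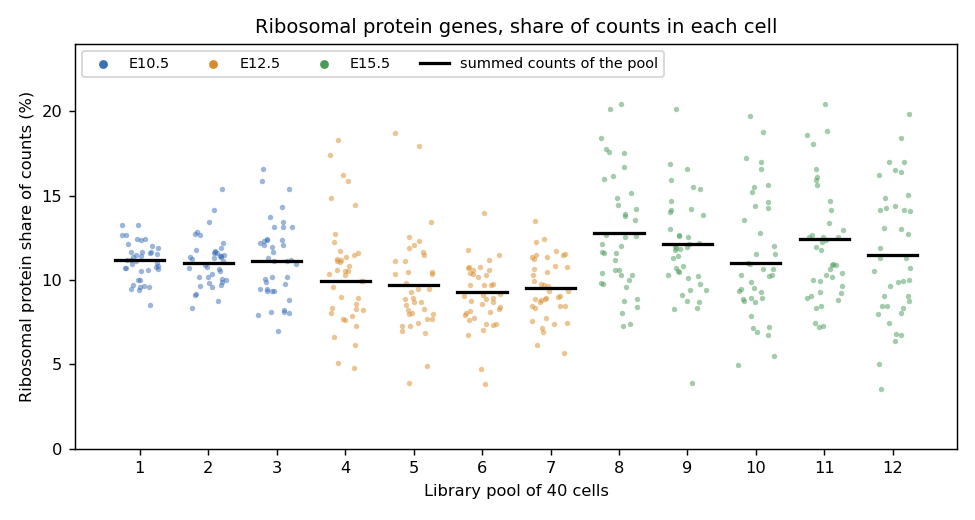
Share of each cell's counts held by the 80 ribosomal protein genes (percent), by library pool, with the stages in colour and the share of the pool's summed counts as a black line. The pools of E12.5 lie between 9.28% and 9.92%, below all other pools, and the cells of E15.5 spread most, from 3.52% to 20.5%.

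Single cells differed more than stages did, and more at each later stage. The share ran from 6.98% to 16.6% at E10.5 with a median of 11.2%, from 3.83% to 18.7% at E12.5 with a median of 9.41%, and from 3.52% to 20.5% at E15.5 with a median of 11.5%. The standard deviation over cells was 1.69, 2.52 and 3.49 percentage points. Cells above 15% numbered 4 of 119, 6 of 158 and 40 of 200. The share had no clear relation to total counts across the cells of a stage: Spearman's rho was 0.02 over 119 cells, -0.12 over 158 and -0.01 over 200. With the number of detected genes rho was 0.03, -0.22 and -0.16 in stage order. Both are given as a description of cells that share libraries.

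The stages also held different cells. Classes outside the mesenchyme (skeletal muscle, skin epithelium and endothelium) made up 5, 16 and 50 cells of the 3 stages in order (4.20%, 10.1% and 25%). Of 15 markers of skin epithelium 13 had a count in the first stage (Krt14 and Krt1 at 0), 13 in the next (Krt8 and Krt1 at 0) and 15 in the last. Their summed level in the pools ran from 12.3 to 57.7 CPM, from 36.6 to 509 CPM and from 948 to 2048 CPM. All 12 endothelial markers had a count at every stage, with sums of 135 to 313, 41.2 to 452 and 39.7 to 540 CPM. Muscle markers numbered 12 of 23 at E10.5 (11 at 0, among them Myod1 and Myf5) and 23 of 23 later, with sums of 189 to 234, 40.5 to 4213 and 95.0 to 1178 CPM. With mesenchymal classes only, the E12.5 share was 9.14% and the E15.5 share 10.52%, which gave log2 ratios of 0.20 between them and -0.078 for E15.5 against E10.5. Mast cell markers numbered 5 of 8 at E10.5 (Cpa3, Mcpt4 and Tpsb2 at 0), then 2 of 8 and 8 of 8, with sums in the pools of 8.17 to 18.4, 14.0 to 29.5 and 11.9 to 2187 CPM. Red cell markers numbered 12, 7 and 9 of 12, with sums of 0.0805 to 2498, 0.115 to 48.8 and 0 to 157 CPM. At the resolution used no cluster took either name, but at resolution 1.5 a cluster of 21 cells had Cma1, Cpa3 and Hdc among its leading genes, beside collagens. All 21, 4 of E12.5 and 17 of E15.5, were counted as mesenchymal, and the 17 had a summed share of 13.3%. Without them, an alternative chosen after seeing the data, the mesenchymal share was 9.13% at E12.5 against 10.3% for E15.5, and the log2 ratios were 0.18 between them and -0.10 for E15.5 against E10.5. In sums over cells, fewer cells of a type and less RNA per cell cannot be told apart.

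Immediate-early genes, which tissue dissociation can induce, moved with stage as well. Their 14 genes held 0.111%, 0.327% and 0.550% of counts in stage order, and 13 stress genes held 1.62%, 0.768% and 0.637%. Across the cells of each stage the family's share had a rho of -0.17, -0.10 and -0.35 with the immediate-early share, and of 0.09, 0.08 and 0.25 with the stress share, in stage order. The part of these lists and of the cell makeup in the differences between stages was not tested.

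Between E12.5 and E10.5 the log2 ratio was below 0 for 58 of 77 members and above 0 for 19. A gene was called when its log2 ratio of CPM with 5 added reached 1 in size and its pools were apart, that is, the lowest pool of one stage exceeded the highest of the other. Of 77 members tested, 0 were called higher, where 7.76% of all 13125 genes tested were, and 1 was called lower (Rpl38), where 2.83% of genes were. Without the size rule, pools were apart and lower for 31 members (40.3%), against 7.05% of all genes, and apart and higher for 8 (10.4%), against 12.8% of all genes. The median log2 ratio was -0.18 over the members, 0.17 over all genes tested and -0.08 over 115 other genes with at least 500 CPM in every stage. Of these other abundant genes 22 were apart and higher and 42 apart and lower (36.5%), a share near that of the members. Scaling by edgeR's TMM factors or DESeq2's size factors, which brought the median of all genes from 0.17 to 0.04 and 0.02, gave 56 and 58 members lower and 1 higher.

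Between E15.5 and E12.5 most of the family stood higher. No member was called in either direction (0 of 77), where 2.99% of genes were called higher and 1.63% lower. Pools were apart and higher for 36 members (46.8%), against 4.73% of all genes, and apart and lower for 0, against 4.32%. Of the 115 other abundant genes 10 were apart and higher and 33 apart and lower. The log2 ratio was above 0 for 71 of 77 members, with a median of 0.30 against -0.04 over all genes. With mesenchymal classes only, 14 members were apart and higher, all among the 36, and 10 without the cluster led by mast cell genes. Of all genes, 4.26% and 4.12% were apart and higher in these 2 settings.

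Over the whole span from E10.5 to E15.5 the members split. Rps27 and Rpl37a were called higher (2 of 77, against 11.2% of all genes) and 0 were called lower (5.01% of genes). Pools were apart and higher for 29 members (37.7%), against 14.8% of genes, and apart and lower for 11 (14.3%), against 9.97%. That split was 18 higher to 21 lower under TMM scaling and 17 to 22 under DESeq2's size factors. It was 10 to 19 in mesenchymal classes only, where 13.7% of all genes were apart and higher and 10.2% lower. When the cluster led by mast cell genes was left out as well it was 7 to 19, against 13.2% and 10.1% of all genes. The 3 comparisons share stages and are not independent.

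The large and small subunit did not move evenly. Rpl genes held 6.60%, 5.51% and 6.77% of counts at the 3 stages and Rps genes 4.51%, 4.11% and 5.25%. The ratio of the first to the second was 1.46 in the earliest stage (pools 1.43 to 1.49), 1.34 in the next (1.32 to 1.39) and 1.29 in the last (1.24 to 1.37), so the pools of E10.5 lay above all others and those of E12.5 and E15.5 overlapped. Of the 11 members apart and lower over the whole span, 10 were Rpl genes: Rpl7l1, Rpl7a, Rpl5, Rpl4, Rpl22, Rpl18, Rpl19, Rpl11, Rpl27a and Rpl35a, with log2 ratios from -0.82 to -0.23. Rpl11, which acts with Rpl5 in the 5S particle, was at -0.29. From E12.5 to E15.5, 18 of 45 Rpl and 18 of 32 Rps genes were apart and higher. A ratio within the family is free of the scaling between stages.

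Members were set against the family by 2 measures: pools apart in the direction opposite to the summed family, or a share of the family's own counts that moved by at least 0.5 on the log2 scale with pools apart. From E10.5 to E12.5 there were 11 such members, from E12.5 to E15.5 there were 4, and over the whole span 16. By the first measure alone they numbered 8 (10.4%), 0 and 11 (14.3%) of 77. Of all genes, 12.8%, 4.32% and 9.97% were apart in the same directions. For the second measure no share over all genes was taken. The share of the family's counts does not change with the scaling.

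Rps27, a zinc-binding protein of the small subunit (GRCm38 chr3:90212522-90213651, minus strand), stood higher at each step and was called over the whole span. It was at 770, 794 and 774 CPM in the pools of E10.5, at 1092, 1313, 1241 and 1154 CPM at E12.5, and at 2259, 2104, 2010, 2333 and 1792 CPM at E15.5. The 3 stages did not overlap. The log2 ratio was 0.61 from E10.5 to E12.5, 0.81 from E12.5 to E15.5 and 1.42 over the whole span (1.23 in mesenchymal classes only and 1.29 under TMM scaling). Its share of the family's counts was 0.702%, 1.24% and 1.74%. The pyrimidine tract of its start is shown above. Its counts are uncertain in origin, because the row Gm9846 held nearly the same counts in each cell (177391 against 177435 in all).

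Rpl37a, a zinc-binding protein of the large subunit (chr1:72711290-72713813, plus strand), was the other member called over the whole span. It was at 876, 951 and 1158 CPM in the pools of E10.5, at 1144, 1100, 1233 and 1116 CPM at E12.5, and at 2199, 2125, 2041, 2435 and 1545 CPM at E15.5. Every pool of E15.5 lay above every earlier pool, and E10.5 and E12.5 overlapped. The log2 ratio was 0.84 from E12.5 to E15.5 and 1.05 over the whole span. The latter was below 1, which ends the call, without the first E10.5 pool (0.97), without the fourth E15.5 pool (0.99), in mesenchymal classes only (0.88) and under TMM scaling (0.92).

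Rpl38 (chr11:114668524-114672331, plus strand), a large subunit protein known from Tail-short mice, in which its loss alters the pattern of the axial skeleton, fell at E12.5 and stood higher again at E15.5. It was at 2151, 2264 and 2206 CPM in the pools of E10.5, at 1032, 936, 1130 and 1157 CPM at E12.5, and at 2106, 2153, 1887, 2013 and 1884 CPM at E15.5. E12.5 lay below both other stages in every pool. The log2 ratio was -1.05 and then 0.91, and over the whole span the pools overlapped at -0.14. The fall was -0.99 without the second E12.5 pool, which ends the call, and -1.12 in mesenchymal classes only. Rpl38 gave 1.99%, 1.11% and 1.67% of the family's counts, and every cell of each stage had a count.

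Rps2, Rpl5, Rpl4 and Rpl7a had the lowest log2 ratios over the whole span among members with at least 500 CPM in every stage. Rpl18, Rpl19, Rpl11, Rpl27a and Rpl35a, listed above, are abundant as well and were also apart and lower, by less. Rps2 lies near the entry of the messenger RNA channel (chr17:24718116-24721929, plus strand). It was at 3752, 4338 and 3994 CPM in the pools of E10.5, at 2360, 2450, 1947 and 2620 CPM at E12.5, and at 2914, 2641, 2270, 2640 and 2830 CPM at E15.5. The later stages overlapped each other and lay below E10.5, with log2 ratios of -0.75 at E12.5 and -0.58 at E15.5.

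Rpl5 binds the 5S ribosomal RNA and, when free, the p53 regulator Mdm2 (chr5:107900502-107909005, plus strand). It was at 3153, 3017 and 3168 CPM in the pools of E10.5, at 2114, 1743, 1611 and 1891 CPM at E12.5, and at 2418, 2396, 1548, 2026 and 1776 CPM at E15.5. The log2 ratio was -0.74 at E12.5 and -0.60 at E15.5, both against E10.5.

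Rpl7a (chr2:26910764-26913318, plus strand) was at 1401, 1398 and 1448 CPM, then 1299, 1127, 932 and 1202 CPM, then 902, 1029, 899, 1057 and 780 CPM in the pools of the 3 stages. It was the member with the lowest log2 ratio from E12.5 to E15.5, at -0.33 with overlapping pools, and its share of the family's counts was 1.20% and then 0.766%, with pools apart. Over the whole span it was at -0.61 and Rpl4 (chr9:64173375-64178666, plus strand) at -0.59. In mesenchymal classes only, Rps2, Rpl5, Rpl7a and Rpl4 were at -0.79, -0.81, -0.77 and -0.75 over the whole span.

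**Figure D2:**
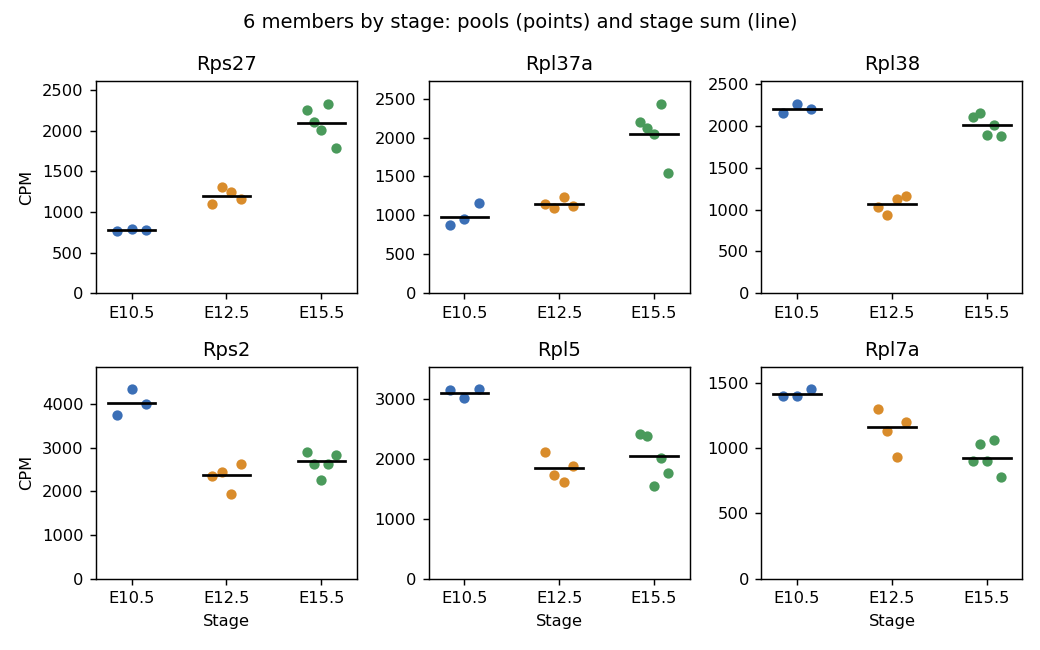
CPM of 6 members by stage, with library pools as points and the stage's summed level as a line; each axis starts at 0. Rps27 rises at each step, Rpl37a stands higher at E15.5, Rpl38 is lowest at E12.5, and Rps2, Rpl5 and Rpl7a stand highest at E10.5.

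Other members against the fall at E12.5 were smaller in change. Rpl28, Rps28, Rps13, Rps19, Rps14 and Rpl32 had pools apart and higher, with log2 ratios of 0.31, 0.30, 0.26, 0.17, 0.16 and 0.15. Rps19, a protein often mutated in Diamond-Blackfan anaemia, went on to 0.57 from E12.5 to E15.5, and Rpl32 to 0.54. Their direction at E12.5 rests on the scaling, since under TMM scaling Rps19, Rps14 and Rpl32 turned to -0.021, -0.034 and -0.045 and the pools of Rpl28, Rps28 and Rps13 overlapped. Rps27 alone kept its pools apart there, at 0.42. In mesenchymal classes only, Rps27 and Rps14 had pools apart and higher.

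The members with the largest ratios from E12.5 to E15.5 were short. Rpl38, Rpl39, Rpl37a, Rps27 and Rps29 had the largest log2 ratios with pools apart, 0.91, 0.87, 0.84, 0.81 and 0.69. Over 76 members with an annotated coding length, Spearman's rho of that length with the log2 ratio was -0.55, a description across genes that are not independent. Over 103 other genes with at least 500 CPM it was -0.20, and over 12490 other genes -0.06. The rho lay between -0.54 and -0.38 when each E15.5 pool was set against E12.5, at -0.50 in mesenchymal classes only, and at -0.53 over 70 members without a near-identical row. The 25 shortest members (141 to 408 bases) had a median log2 ratio of 0.44, and the 25 longest (up to 1260 bases) one of 0.20. From E10.5 to E12.5 the rho was -0.12.

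**Figure D3:**
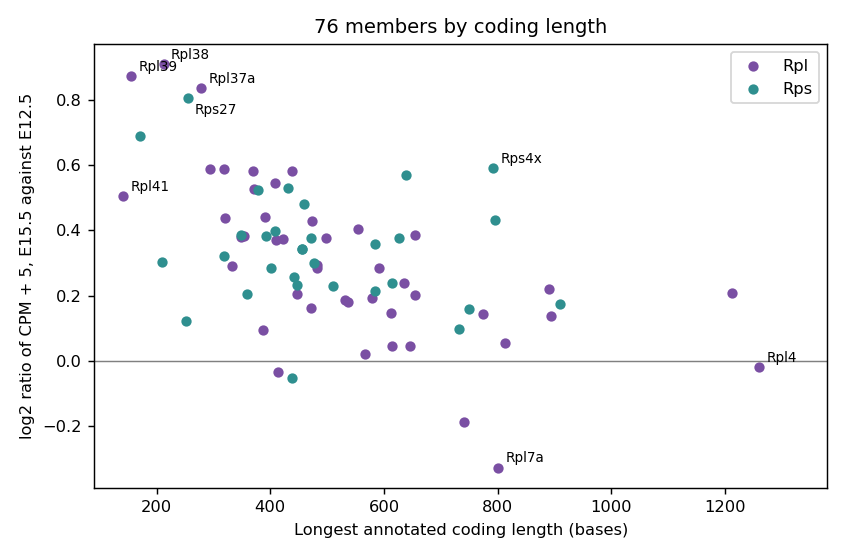
Log2 ratio of CPM with 5 added, E15.5 against E12.5, by longest annotated coding length in bases, for 76 members in 2 colours for large and small subunit. The short members Rpl38 and Rpl39 lie near 0.9 and the long members Rpl4 and Rpl7a at or below 0. The 25 shortest members run from 0.09 to 0.91 and the 25 longest from -0.33 to 0.59.

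In shares of the family's counts, the 25 shortest members held 26.1% in the first stage (pools 25.7 to 26.4), 26.1% in the next (26.0 to 26.3) and 29.6% in the last (29.0 to 30.3). The 25 longest held 41.9% (41.6 to 42.4), 39.9% (39.5 to 40.3) and 37.4% (36.5 to 38.1), and no stage overlapped another. At E15.5 the short members held 29.0% in connective tissue-like cells, 29.9% in epithelium-like and 32.2% in endothelium-like cells. Across cells the share of short members had a rho of 0.31, 0.11 and 0.30 with the cell's total counts at the 3 stages. The median total fell from 250710 to 192228 counts between E12.5 and E15.5, and the part of read length, RNA quality or depth in the relation to length was not tested.

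Members that opened with a C and at least 4 further pyrimidines at the annotated start were set beside the other members with an entry. These others are not shown to lack a tract, since a tract that begins a few bases away was not counted. From E12.5 to E15.5, 7 of 12 members with this opening and 18 of 45 others were apart and higher. The median log2 ratios were 0.26 and 0.32. From E10.5 to E12.5, 3 of 12 and 21 of 45 were apart and lower, with medians of -0.09 and -0.21. No test of that difference was made.

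Paralogs were followed as pairs, since some are known for tissue-restricted use. Rpl3l, known from heart and skeletal muscle, and Rpl10l, known from testis, had 0 counts in all 477 cells. In the 18 muscle-like cells, 0 counts allow a share of cells with a read of up to 16.7%. Their parents Rpl3 and Rpl10 were at 1488 to 2079 CPM and 1902 to 1961 CPM across the stages.

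Rpl39l, known from testis and some tumours, had 1 count at E10.5 and 0 in the 158 cells of the next stage, which allows up to 1.90% of cells with a read. At E15.5 it had 160 counts in 6 of 200 cells. Of these, 87 counts came from 1 connective tissue-like cell. Its parent Rpl39, which lines the exit tunnel of the large subunit, was at 500, 387 and 712 CPM. The 2 coding sequences of 156 bases are shown with their 23 differing bases in capitals. Within the coding sequence, only reads that cover such a base differ between the 2 genes. The transcripts extend beyond the coding sequence, their other parts were not compared, and how reads were placed was not tested. The coding sequences were 85.3% identical, with a longest identical run of 38 bases, in GENCODE M21 transcripts of GRCm38.
Rpl39: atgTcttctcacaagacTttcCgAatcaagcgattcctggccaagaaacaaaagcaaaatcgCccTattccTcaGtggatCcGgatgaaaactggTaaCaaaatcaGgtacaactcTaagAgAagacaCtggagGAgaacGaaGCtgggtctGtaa (gene at chrX:37082520-37085402, minus strand)
Rpl39l: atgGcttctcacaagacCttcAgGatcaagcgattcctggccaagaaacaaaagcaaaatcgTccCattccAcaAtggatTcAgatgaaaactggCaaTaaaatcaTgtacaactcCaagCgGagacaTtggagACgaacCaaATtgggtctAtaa (gene at chr16:10170226-10174911, plus strand)

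Rpl22 and its paralog Rpl22l1 moved apart. Rpl22, an RNA-binding large subunit protein (chr4:152325742-152334071, plus strand), was at 625.5, 421 and 450 CPM at the 3 stages. It lay below E10.5 in every later pool, with log2 ratios of -0.56 and -0.47. Rpl22l1 (chr3:28805436-28807424, plus strand) was at 59.9, 70.7 and 108 CPM, with overlapping pools at each step. Over the whole span its pools were apart at 0.80, from 47.2 to 69.9 CPM at E10.5 and from 78.7 to 126 CPM at E15.5. Their coding sequences were 69.4% identical.

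Rpl7l1, which shares 54.5% of its bases with Rpl7, had the lowest log2 ratio of the family over the whole span. It was at 168, 106 and 92.6 CPM, and the later pools lay between 79.5 and 141 CPM against 153 to 184 CPM at E10.5. The log2 ratio was -0.64 at E12.5 and -0.82 at E15.5. Rpl7 itself had overlapping pools throughout, at 2259, 1865 and 1935 CPM. Rps27l, a p53 target 72.0% identical to Rps27, was at -0.50 at E12.5 with pools apart and lower, where Rps27 was at 0.61 with pools apart and higher. Rps4y2, the older symbol of Rps4l, is annotated as a processed pseudogene on chromosome 6. It had 138, 110 and 99.0 CPM with overlapping pools, while Rps4x on the X chromosome was at 1801, 1719 and 2593 CPM and apart at E15.5 (0.59 against E12.5).

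Cell classes within a stage were taken from clusters computed without any member, without the 7 further ribosomal proteins and without rows that copy a member. A class is called X-like from its markers, and connective tissue-like cells join 3 clusters, of which a small one was led by rows of the protocadherin Pcdha cluster. At E15.5 skin epithelium-like cells had the highest share and connective tissue-like cells a low one. The median was 16.2% over 29 epithelium-like cells (7.45% to 20.5%), 14.2% over 11 muscle-like cells (9.41% to 20.1%) and 14.1% over 10 endothelium-like cells (9.99% to 18.8%). It was 12.3% over 12 cartilage-like cells (8.78% to 16.2%) and 10.4% over 128 connective tissue-like cells (3.91% to 17.0%). The 9 cells of the cluster that took no name had the lowest median, 8.70% (3.52% to 18.6%). At resolution 1.5 the cluster led by mast cell genes stood apart, with a median of 13.4% over 17 cells. There, 111 cells were connective tissue-like, with a median of 10.3%. The ranges of all classes overlapped.

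The order of epithelium and connective tissue was the same in each of the 5 pools of E15.5. Summed over the epithelium-like cells of a pool, the share was 16.6%, 14.4%, 15.9%, 16.0% and 16.4%. Over the connective tissue-like cells of the same pools it was 11.4%, 10.3%, 9.70%, 11.0% and 9.99%. The muscle-like cells, 1 to 4 in a pool, lay above the connective tissue-like cells of the same pool in all 5, at 13.6% to 17.2%. All cells of E15.5 are 1 sample, so pools show technical spread only. Median counts per cell were 255191 in epithelium-like, 232139 in muscle-like and 177046 in connective tissue-like cells.

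Nearly the whole family took part. Against the other E15.5 cells, 77 of 77 members were higher in epithelium-like cells, where 38.4% of all genes were (and 61.4% lower), with a median log2 ratio of 0.49. In muscle-like cells 69 of 77 were higher and 8 lower (34.7% and 65% of genes) and in endothelium-like cells 64 and 13 (34.1% and 65.6% of genes), with medians of 0.31 and 0.28. In connective tissue-like cells 76 of 77 were lower and 1 higher (45.7% and 54.1% of genes), with a median of -0.43, and in cartilage-like cells 38 were higher (36.2% of genes) and 39 lower (63.6%). Set against connective tissue-like cells of the same pool, 62 members were higher in epithelium-like cells in each of the 5 pools, as 4.04% of all genes were, and 0 were lower in each (14% of genes). For muscle-like cells these counts were 33 (1.05% of genes) and 0 (19.1%). Some pools held only 1 muscle-like cell, and a gene without a count in that cell cannot be higher in each pool. The shares over all genes, which include genes of low level, are thus no matched background. Other genes of like abundance were not set beside the members in these class comparisons.

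**Figure D4:**
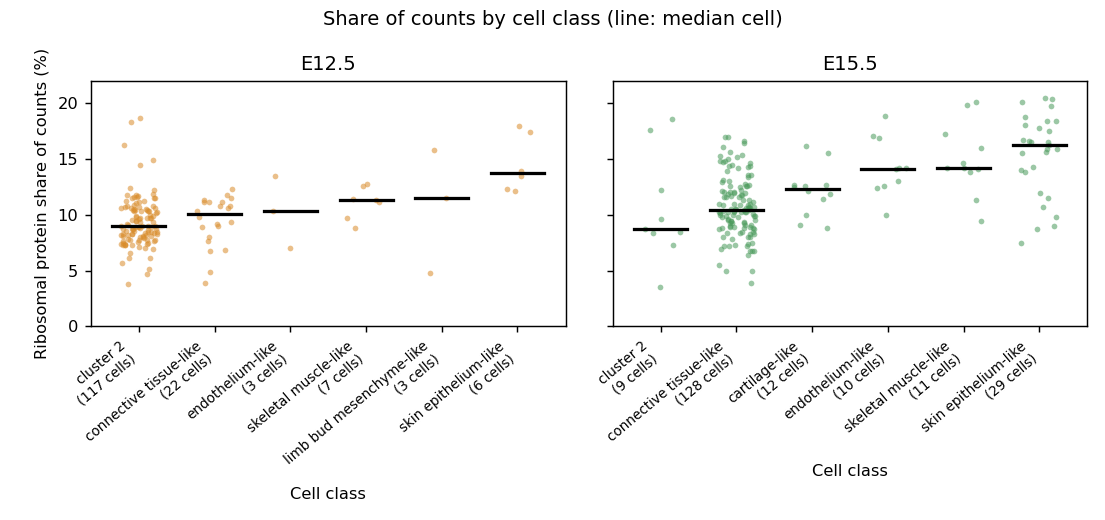
Share of each cell's counts held by ribosomal protein genes (percent) by cell class at E12.5 and E15.5, with the median cell as a line and classes in order of their median; classes under 3 cells are left out. Epithelium-like cells have the highest median at both stages, 13.7% and 16.2%, and the ranges of the classes overlap.

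At E12.5 the same order appeared in few cells. The median was 13.7% in 6 epithelium-like cells (12.1% to 17.9%), 11.4% in 7 muscle-like cells (8.85% to 12.7%) and 10.1% in 22 connective tissue-like cells (3.91% to 12.3%). The main cluster of 117 cells took no name, since its 10 leading genes held Scx and Egr1 of the tendon list and none of its limb bud markers, and had a median of 8.96% (3.83% to 18.7%). In that cluster 75 of 77 members were lower than in the other E12.5 cells and 2 higher (44.9% and 54.1% of genes), with a median log2 ratio of -0.29. The 22 connective tissue-like cells had 58 of 77 members lower and 19 higher (58.1% and 40.8% of genes) and a summed share of 8.91%. At resolution 0.5, 12 cells were connective tissue-like with a median of 8.49%, and 128 were unnamed with 9.13%. At resolution 1.5, 11 were connective tissue-like (8.03%), 76 cartilage-like (9.74%) and 51 limb bud mesenchyme-like (8.71%). The place of connective tissue-like cells at E12.5 thus depends on the resolution. At E10.5, 114 limb bud mesenchyme-like cells had a median of 11.2% and 5 endothelium-like cells 9.92%. Across stages, muscle-like cells had medians of 11.4% and 14.2% at E12.5 and E15.5. Endothelium-like cells had medians of 9.92%, 10.3% and 14.1% at the 3 stages, over 5, 3 and 10 cells. The 3 cells of E12.5 lay between 6.99% and 13.5%. Ranges overlapped between stages in both classes.

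Within classes, Rpl7l1 and Rpl22l1 went against the family in muscle-like cells. In the 11 muscle-like cells of E15.5, where most members were higher, Rpl7l1 was at 37.5 CPM (exact Poisson interval 30.5 to 45.6) against 96.0 CPM in the other cells, a log2 ratio of -1.25. Its pools in these cells ran from 4.69 to 112 CPM, and 2 of the 11 cells had none. Rpl22l1 was at 46.4 CPM (38.6 to 55.4) against 112 CPM, a log2 ratio of -1.19, with pools from 21.1 to 117 CPM. In the 7 muscle-like cells of E12.5 Rpl22l1 was at 76.8 CPM and Rpl7l1 at 141 CPM, not below the connective tissue-like cells (64.4 and 134 CPM). Against the same other cells of E15.5, Rpl22 had a log2 ratio of 0.41 and Rpl7 one of -0.11 in muscle-like cells. The pools of Rpl22 ran from 346 to 800 CPM in muscle-like and from 373 to 477 CPM in connective tissue-like cells and overlapped. Low levels were not particular to muscle-like cells: the 9 cells of E15.5 in the unnamed cluster had Rpl22l1 at 38.2 CPM and Rpl7l1 at 47.1 CPM, with median cells of 29.8 and 16.2 CPM. Rpl17, Rpl38 and Rpl30 had the largest ratios in muscle-like cells, 0.80, 0.73 and 0.72.

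**Figure D5:**
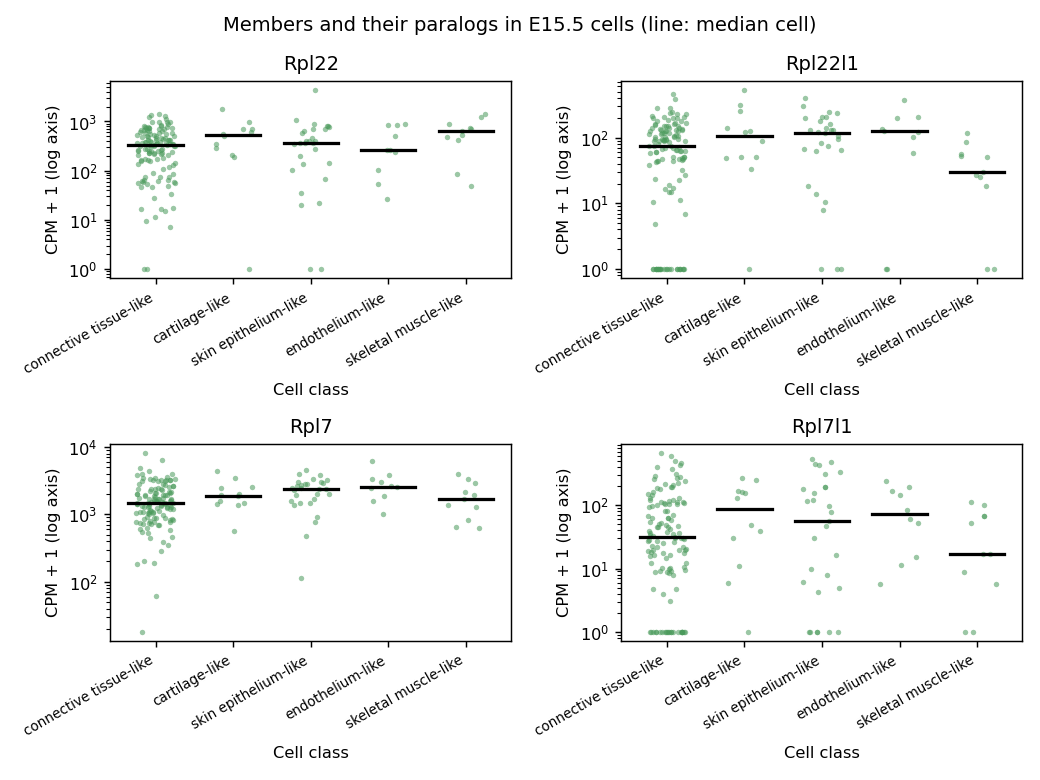
CPM plus 1 on a log axis in single E15.5 cells of 5 classes for Rpl22, Rpl22l1, Rpl7 and Rpl7l1, with the median cell as a line. Rpl22l1 and Rpl7l1 have their lowest medians of the 5 classes in muscle-like cells, 29.1 and 16.2 CPM, with ranges that overlap; the 9 cells of the unnamed cluster are not plotted.

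In epithelium-like cells of E15.5, Rps16, Rpl35 and Rpl23a had the largest ratios against the other cells (0.83, 0.80 and 0.79) and Rpl10, Rpl34 and Rpl17 the smallest (0.11, 0.19 and 0.24). Endothelium-like cells had Rpl34, Rpl39 and Rps29 highest at 0.90, 0.89 and 0.86, while Rpl13a, Rpl38 and Rpl12 were lower at -0.25, -0.23 and -0.21. Connective tissue-like cells had Rpl39, Rpl37 and Rps29 lowest at -0.86, -0.72 and -0.68. Rps4y2 was their only member above 0 (0.04), and Rpl8 and Rpl10 came next at -0.17 each. Cartilage-like cells had Rps13 and Rpl32 lowest at -0.70 and -0.50 and Rps27l at -0.44, and Rpl7l1, Rpl22l1 and Rps4y2 highest at 0.47, 0.44 and 0.43. Rpl34 shares its counts with a pseudogene row and is uncertain.

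Among E12.5 cells the ratios by class were as follows. In the 22 connective tissue-like cells Rps4y2, Rps27l and Rpl12 were lowest at -1.83, -1.55 and -0.75, and Rpl36a, Rpl7l1 and Rps15a highest at 0.38, 0.36 and 0.35. In the unnamed cluster Rps4y2, Rpl36a and Rps20 were lowest at -0.67, -0.66 and -0.57, while Rpl7a, Rps27l and Rpl7l1 stood nearest to or above the other cells at 0.06, 0.06 and -0.04.

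Members varied together from cell to cell, most of all at E15.5. For each member with at least 500 CPM, the Spearman correlation of its level with the share of all other members had medians of 0.24 (72 members), 0.32 (71) and 0.46 (72) in stage order. For 115 other genes of that level the medians were 0.05, 0.00 and 0.08. Rps14 followed the family most closely at each stage (0.51, 0.49 and 0.69), and the lowest values were Rpl18 at E10.5 (-0.07), Rpl27 at E12.5 (-0.01) and Rpl24 at E15.5 (0.25). Among other genes, Tpt1, a classic messenger RNA with a pyrimidine tract, was most like the family by its lowest correlation over the 3 stages, 0.40, followed by Rplp2 (0.34), Rplp0 (0.31) and Eef1a1 (0.27), beside rows that copy a member. These values describe all cells of a stage, which share libraries and totals. Classes outside the mesenchyme made up 4.20%, 10.1% and 25% of the cells in stage order, and the part of this makeup was not tested.

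Of 31 ribosome assembly factors, 10 were called lower at E12.5 and 0 higher, with a median log2 ratio of -0.85. Over all genes tested, 2.83% were called lower and 7.76% higher at E12.5, with a median of 0.17. The calls in the lists below are to be read against these. The assembly factors held 0.886%, 0.472% and 0.455% of counts in stage order. From E12.5 to E15.5 0 were called and the median was -0.11, where the ribosomal protein members stood at 0.30. Wdr12, Rrp12 and Nip7, which act in subunit maturation, were at -1.88, -1.59 and -1.57 at E12.5, and Nob1, which cuts the 3′ end of the small subunit RNA, at 0.75 with overlapping pools.

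Among other translation genes, the 7 ribosomal proteins outside the pattern held 1.69%, 1.20% and 1.41% of counts. Of these 7, 6 were apart and lower at E12.5 and 3 apart and higher from there to E15.5. Over all genes, 7.05% were apart and lower and 12.8% apart and higher at E12.5, and 4.73% apart and higher from there to E15.5. Rpsa, a small subunit protein, was at 7402, 4344 and 4210 CPM in stage order. Of 5 elongation factors, Eef1d was called lower at E12.5 (-1.18), while Eef1a1 had pools apart and higher (0.33). Of 15 further translation genes 7 were apart and lower at E12.5, among them Npm1 (-0.84), Eif4b (-0.83) and Pabpc1 (-0.61). Of 14 genes for RNA polymerase I and its factors, 1 was called lower at E12.5. Of 76 mitochondrial ribosomal proteins, 1 was called higher and 3 lower at E12.5, the latter near the share over all genes, with a median of -0.06 and shares of 0.685%, 0.655% and 0.590%.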

How the data were processed

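Single limb cells of 3 stages were placed in their stage by their label and in a library pool by the index in it. The deposited values were whole-number counts per gene and cell, which the values show to be free of normalization; Bowtie2, featureCounts and mm10 are named per the submitters' processing notes. Not given in the sources used here were tool versions, annotation, strand setting and any molecular identifiers, and the values were treated as reads. A second set of 1120 samples is not analysed here. The members and gene lists were chosen with earlier results of these data known.

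Repeated symbols with identical counts were kept once and others added up. Counts were summed per stage and pool and divided by the total to give CPM. Ratios used 13125 genes with a count in at least 10 cells. No pair of cells held identical counts, and doublets were not called; the deepest 5% of cells were left out as an alternative. For clusters, 2000 variable genes, 15 components, 15 neighbours and Leiden resolution 1 were used in scanpy 1.11.5, and names went to clusters by the marker list best represented in the first 100 genes by fold (3 or more markers). No name was given where another list had more markers in the first 10; these conditions were set after seeing the data. The size of a call, its pools and the members named were set by rule: the 8 members with most counts, up to 5 in each direction and up to 8 against the family per comparison, paralogs, 3 in each direction per class, and members under 20 CPM. Members named outside that rule to complete a count (Rpl18, Rpl19, Rpl11, Rpl27a and Rpl35a) or as ends of a range (Rpl24 and Rpl27) were chosen after their values were seen. Some genes that the rule names are not reported here by name. Rows with counts correlated over 0.9 with a member and nearly equal in sum (Rpl26, Rpl30, Rpl34, Rps23 and Rps27 are among the 6 members that had 1 each) make that member's origin uncertain. Positions and lengths are from GENCODE M21 (GRCm38), with the longest coding sequence of each gene. The call rule was run on simulated counts without any pool or litter effect, so that run cannot show how the rule behaves under such effects. TMM factors came from edgeR 4.0.16 and size factors from DESeq2 1.42.0. Tried as well were other pseudocounts, filters, cell weights, cluster resolutions and leaving out each pool.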

Additional observations from a re-analysis of the deposited data

How the results depend on the processing

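No paired analysis was possible because each stage is 1 sample and pools carry no number shared between stages. With mesenchymal classes only, the share was 9.14% at E12.5 and 10.52% at E15.5; its log2 ratio was -0.28 for E12.5 against E10.5, 0.20 for E15.5 against E12.5 and, reversed, -0.078 for E15.5 against E10.5, as was Rpl41 there at -0.047. Members with pools apart then numbered 2 higher at E12.5 against E10.5, 14 higher and 1 lower at E15.5 against E12.5, and 10 higher and 19 lower at E15.5 against E10.5, with 1 called higher. When the cluster led by mast cell genes was also left out, an alternative chosen after seeing the data, these values were 9.13%, 10.3%, -0.28, 0.18 and, reversed, -0.10 (Rpl41 -0.074), with 2 higher, 10 higher and 1 lower, and 7 higher and 19 lower, and 1 called higher. Under TMM scaling the log2 ratio was -0.40 for E12.5 against E10.5 and, reversed, -0.018 for E15.5 against E10.5, with 1 member higher and 56 lower in the first, and 18 higher, 21 lower and 1 called higher in the second. Under DESeq2's size factors it was -0.43, 0.40 and, reversed, -0.038 in the 3 comparisons, with 1 higher and 58 lower in the first, and 17 higher, 22 lower and 1 called higher in the last. Rpl32, Rps14 and Rps19 reversed at E12.5 against E10.5, to -0.045, -0.034 and -0.021 under TMM and -0.079, -0.068 and -0.055 under size factors. Averaging each cell's CPM left 5 members higher at E12.5 against E10.5, and leaving out the deepest 5% of cells 19 higher at E15.5 against E10.5. With the 7 further ribosomal proteins the shares were 12.8%, 10.8% and 13.4% and the log2 ratio for E12.5 against E10.5 was -0.24. Without Rpl41, the member with most counts, they were 10.6% and 9.22% at E10.5 and E12.5, and without the 6 members that have a copying row, an alternative chosen after seeing the data, 10.4%, 8.91% and 11.1%. Leaving out each pool gave 1 to 2 members called higher at E15.5 against E10.5, 0 to 1 called lower at E12.5 against E10.5 and 0 to 1 apart and lower at E15.5 against E12.5. Over the alternatives, 402 of the values for the family, its counts and its classes were labelled the same, 48 moved and 4 reversed. The cause was not tested. The limit was the spread between pools for shares, that between cells for class medians, and a fixed ratio for counts of members. Part of the 402 could not move, because leaving out a pool changes no share of the other stages. Depth limits the low members (Rpl39l, Rpl22l1 and Rpl7l1), and with 1 sample for each stage no difference could be set against variation between litters.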
